A study of Homo sapiens with 8 samples.

Results

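Thrombospondins and CCN proteins are matricellular proteins, secreted molecules that sit in the extracellular matrix and signal to cells rather than bear load. The set described here holds 10 genes chosen by name, among 11940 genes listed in either of the 2 tables of ribosome footprints. It consists of the thrombospondins THBS1, THBS2 and THBS3, the CCN genes CCN1, CCN2, CCN4 and CCN5, and SPARC, POSTN and TNC. Of the 10 genes, 9 were listed without 4-hydroxytamoxifen (4-OHT) and 8 with it. CCN5 was listed in neither table, and POSTN was listed only without 4-OHT. The genes were named after the 4-OHT comparisons of these tables had been seen, so their differences with 4-OHT are given as a description, without p-values.

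The cells were BJ human skin fibroblasts, an established line, of the BJ-HRAS genotype in every group. Active HRAS, a growth-signalling GTPase, is known to push fibroblasts into the stable arrest called senescence, and 4-OHT serves to turn on fusions with a mutated estrogen receptor. The 4 groups were WT without 4-OHT, SNORA13 KO without 4-OHT, WT with 100 nM 4-OHT for 7 days, and SNORA13 KO with the same treatment. SNORA13 is a small nucleolar RNA. Each group had 2 libraries, from the 2 WT clones (15 and 54) or the 2 KO clones (66 and 69), so any difference between genotypes cannot be told apart from a difference between clones. The libraries with and without 4-OHT are in separate tables, and an effect of 4-OHT cannot be told apart from one of table. SNORA13 was listed in neither table, so the footprints give no check of the knockout.

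Values were footprint RPKM, reads scaled by library size and by gene span, where the span includes introns. A footprint value carries mRNA amount and translation together, and in such bulk values fewer expressing cells and less RNA per cell cannot be told apart. Recovered depth ranged from 592884 to 1730402 reads in 7 libraries, and the library of KO clone 66 with 4-OHT was far shallower, with 192176. Fibroblast markers were all listed (10 of 10) and took between 5.91% and 7.66% of reads without 4-OHT and between 2.40% and 2.88% with it. Leukocyte markers (3 of 6 listed) took between 0.0136% and 0.0401%, endothelial markers (2 of 5) at most 0.00554%, smooth-muscle markers (3 of 4) at most 0.00362%, melanocyte markers (1 of 5) at most 0.00786% and keratinocyte or epithelial markers (at most 1 of 5) at most 3.73e-04%. MYH11 was at 0 in every KO library, as were VWF and TIE1 in KO clones without 4-OHT.

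As background, thrombospondins bind the receptors CD36 and CD47, integrins and the endocytic receptor LRP1, and thrombospondin-1 can activate latent TGF-beta. CCN proteins signal mainly through integrins and heparan sulfate proteoglycans. CCN1 and CCN2 are classical targets of the coactivators YAP and TAZ with the TEAD transcription factors, and secreted CCN1 is known to trigger fibroblast senescence in wound repair. SPARC binds collagen and weakens adhesion, while tenascin-C and periostin appear in wounds and remodelling tissue.

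The promoters are shown because genes of this set that share a TEAD-binding hexamer had 4-OHT differences of unlike size. In WT clones their log2 differences ran from -0.22 (CCN2) to -3.30 (THBS1), and all were negative in both genotypes. RefSeq entries (GRCh38.p14) were found for 7 of the 10 genes. CCN1, CCN4 and CCN5 had none, so the promoter of CCN1, which was higher with 4-OHT in WT clones, was not searched. In the 250 bases before each start site, GGAATG (the TEAD hexamer) was searched on both strands. It was present upstream of 4 of the 7 genes, and in 11.9% of 35116 promoter windows of that length. The windows of THBS1 (chr15:39580829-39581078, plus strand), THBS2 (chr6:169253847-169254096, minus strand), CCN2 (chr6:131951373-131951622, minus strand) and SPARC (chr5:151686916-151687165, minus strand) are printed along the gene, with GGAATG or its reverse complement in capitals.
THBS1: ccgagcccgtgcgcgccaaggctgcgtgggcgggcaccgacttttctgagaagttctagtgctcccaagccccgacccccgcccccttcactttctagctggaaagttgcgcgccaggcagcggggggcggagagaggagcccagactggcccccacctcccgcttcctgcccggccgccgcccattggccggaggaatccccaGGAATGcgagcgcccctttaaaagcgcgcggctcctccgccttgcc
THBS2: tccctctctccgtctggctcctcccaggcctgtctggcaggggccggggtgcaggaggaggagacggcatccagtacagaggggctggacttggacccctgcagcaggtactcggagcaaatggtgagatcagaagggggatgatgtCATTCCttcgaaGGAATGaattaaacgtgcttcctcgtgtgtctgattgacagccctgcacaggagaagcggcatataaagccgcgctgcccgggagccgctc
CCN2: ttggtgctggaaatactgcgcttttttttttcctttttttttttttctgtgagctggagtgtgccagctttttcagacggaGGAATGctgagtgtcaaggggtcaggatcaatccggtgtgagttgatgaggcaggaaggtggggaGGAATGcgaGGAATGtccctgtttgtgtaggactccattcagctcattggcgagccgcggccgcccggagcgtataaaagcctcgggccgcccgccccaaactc
SPARC: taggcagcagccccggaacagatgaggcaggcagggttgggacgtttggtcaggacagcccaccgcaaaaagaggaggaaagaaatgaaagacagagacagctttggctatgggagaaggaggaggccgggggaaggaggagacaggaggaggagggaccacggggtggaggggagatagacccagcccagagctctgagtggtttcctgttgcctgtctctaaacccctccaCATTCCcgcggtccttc

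The CCN2 window held 3 matches, starting 169, 104 and 95 bases before the start site. The THBS2 window held 2 in opposite orientations, starting 103 and 91 bases before the start, and the windows of THBS1 and SPARC held 1 each. Neither listed start of THBS3, nor the TNC and POSTN windows, held the hexamer. The other motifs searched on both strands were TGANTCA (AP-1; in 6.57% of all windows), CAGACA (SMAD; 13.6%), GGGCGG (GC box; 42.6%) and the CArG box of serum response factor (1.16%). AP-1 letters were found upstream of POSTN alone among the 7 genes, SMAD letters upstream of THBS2 (2 matches) and TNC (1), GC boxes upstream of THBS1 (4), CCN2 (3), THBS3 (1 at each start) and TNC (1), and the CArG box upstream of none. In CCN2 the last 2 GC-box matches overlap each other. A match in these letters is a description of the sequence and not a measured binding site.

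Without 4-OHT, THBS1 dominated the set. It ranked first among all listed genes by RPKM in 3 of these 4 libraries and second in WT clone 54. The set took 5.25% and 4.93% of recovered reads in WT clones 15 and 54, and 6.49% and 6.13% in KO clones 66 and 69. THBS1 made up between 78.7% and 84.3% of those reads. With 4-OHT the whole set took 1.17% and 0.946% of reads in the WT clones and 0.871% and 0.818% in the KO clones, and THBS1 made up between 29.0% and 40.7% of them. SPARC then held between 28.6% and 34.9% of the reads of the set, and CCN1 between 13.9% and 20.5%.

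**Figure D1:**
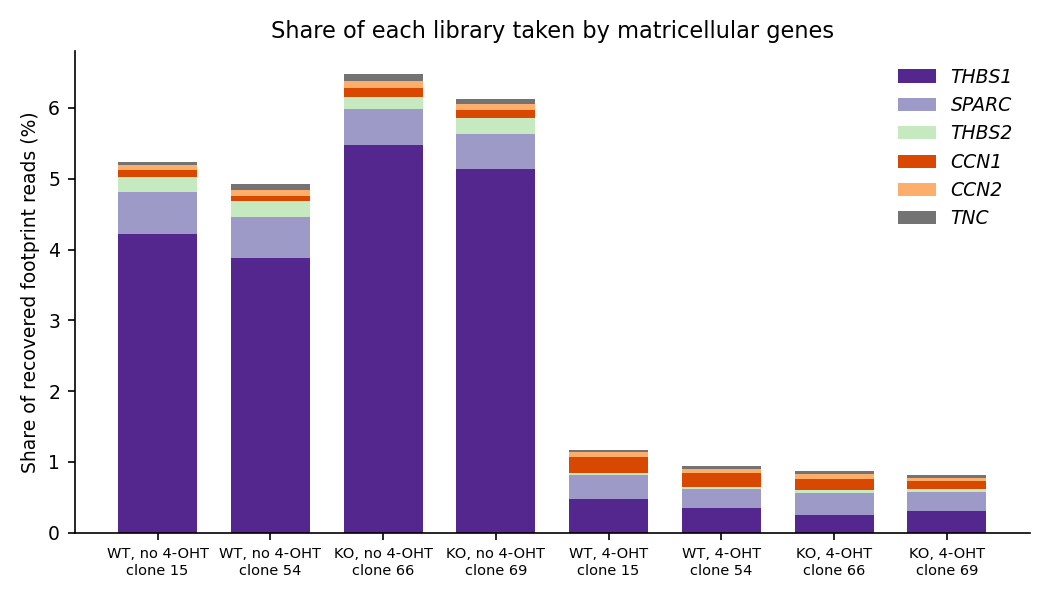
Share of recovered footprint reads (percent, y axis) taken by 6 matricellular genes in each of the 8 libraries (x axis), as stacked bars. The bars reach about 5% to 6% without 4-OHT, mostly THBS1, and about 1% with it.

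THBS1 (ENSG00000137801.10; chromosome 15, 39581079 to 39599466) encodes thrombospondin-1, a trimeric glycoprotein that restrains blood vessel growth. Its RPKM without 4-OHT was 2335 and 2146 in WT clones 15 and 54, and 3022 and 2849 in KO clones 66 and 69. With 4-OHT it was 263 and 195 in WT clones and 140.0 and 173 in KO clones. No group overlapped another, and the order ran from KO without 4-OHT through WT without and WT with 4-OHT to KO with 4-OHT. THBS1 was thus 9.79-fold lower with 4-OHT in the mean of WT clones (log2 difference of RPKM + 1, -3.30 ± 0.22 SE) and 18.7-fold lower in that of KO clones (-4.23 ± 0.22). By clone the ratio without to with 4-OHT was 8.87 (clone 15), 11.03 (54), 21.6 (66) and 16.4 (69).

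THBS2 (ENSG00000186340.15; chromosome 6, 169215785 to 169253846) encodes thrombospondin-2, a close relative of THBS1 that shapes collagen fibrils and helps clear proteases through LRP1. Its RPKM was 55.9 and 57.0 in WT clones and 46.4 and 60.9 in KO clones without 4-OHT. With the treatment it was 7.87 and 7.41 in WT clones and 13.8 and 10.5 in KO clones. All 4 libraries with 4-OHT lay below all 4 without, and among the former the KO clones lay above the WT clones. The log2 difference with 4-OHT was -2.73 ± 0.21 (SE) in WT clones and -2.05 ± 0.21 in KO clones, ratios of means of 7.39 and 4.42. Within a library, THBS1 was between 37.6 and 65.2 times THBS2 in RPKM without 4-OHT. With 4-OHT this ratio was 33.5 and 26.3 in WT clones and 10.1 and 16.6 in KO clones. The spans that divide the reads, introns included, are 18388 bp for THBS1 and 38062 bp for THBS2. The size of this ratio therefore carries the difference in span as well as that in reads.

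THBS3 (ENSG00000169231.13; chromosome 1, 155195588 to 155209178), a pentameric thrombospondin studied mostly in the skeleton, stood far lower. Its RPKM was 5.07 and 4.59 in WT and 3.13 and 2.45 in KO clones without 4-OHT. Libraries with 4-OHT gave 1.005 and 0.411 in WT and 1.27 and 0.904 in KO clones. WT and KO clones overlapped only with 4-OHT, where the values rest on 22.9, 3.3, 3.3 and 11.9 recovered reads. The log2 difference with 4-OHT was -1.79 ± 0.25 (SE) in WT clones and -0.86 ± 0.25 in KO clones, ratios of means of 6.82 and 2.57. At this low level the pseudocount of 1 weighs on the log2 values, which were -2.71 and -1.29 with a pseudocount of 0.1 and -2.58 and -1.39 by limma-voom. THBS3 passed the filter on low reads mostly through the libraries without 4-OHT.

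CCN1 (ENSG00000142871.17; chromosome 1, 85580761 to 85583950), also known as CYR61, was the 1 tested gene of the set with more footprints after 4-OHT. Its RPKM without 4-OHT was 333 and 267 in WT clones and 388 and 362 in KO clones. With 4-OHT it was 717 and 615 in WT clones and 501 and 364 in KO clones. The WT clones with 4-OHT lay above every other library, while KO clone 69 with 4-OHT was at the level of KO clones without. The mean was 2.22-fold higher with 4-OHT in WT clones (log2 difference 1.15 ± 0.22 SE) and 1.15-fold higher in KO clones (0.19 ± 0.22). The KO value turned to -0.16 with median-ratio scaling and to -0.04 without KO clone 66 with 4-OHT.

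CCN2 (ENSG00000118523.6; chromosome 6, 131948176 to 131951372), or CTGF, the profibrotic target of TGF-beta whose promoter is printed above, had the nearest span to CCN1 but another pattern. Its RPKM was 217 and 241 in WT and 328 and 285 in KO clones without 4-OHT. After 4-OHT it was 221 and 175 in WT and 197 and 126 in KO clones. WT clones overlapped between the treatments, whereas KO clones with 4-OHT lay below those without. The log2 difference was -0.22 ± 0.25 (SE) in WT clones and -0.95 ± 0.25 in KO clones. The ratio of CCN1 to CCN2, which no scaling of libraries can move, was 1.54, 1.11, 1.18 and 1.27 in clones 15, 54, 66 and 69 without 4-OHT. With 4-OHT it was 3.24, 3.52, 2.55 and 2.88, so it was higher in all 4 clones than without 4-OHT.

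CCN4, older symbol WISP1, was near the limit of detection, with between 2 and 7.9 recovered reads per library without 4-OHT. With 4-OHT it was listed at 0 in 3 libraries and had 4 reads in KO clone 69. In WT clones 15 and 54 and KO clone 66 with 4-OHT, 3 reads would have given 0.0441, 0.126 and 0.391 RPKM, limits that cover counting error only. POSTN (periostin) had 1 and 3 reads in WT clones 15 and 54 without 4-OHT and was at 0 in both KO clones, where 3 reads would have given 0.0922 and 0.0488 RPKM. Neither gene passed the filter of 10 recovered reads in 2 libraries, and no difference was detectable at this depth.

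SPARC (ENSG00000113140.11; chromosome 5, 151661096 to 151686915), or osteonectin, had 236 and 232 RPKM in WT and 202 and 192 in KO clones without 4-OHT. With 4-OHT it had 132 and 106 in WT and 120 and 103 in KO clones. All 4 libraries with 4-OHT lay below all 4 without, by a narrower margin than for THBS1 or THBS2. The log2 difference was -0.98 ± 0.18 (SE) in WT clones and -0.82 ± 0.18 in KO clones.

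TNC (ENSG00000041982.16; chromosome 9, 115019575 to 115118157), tenascin-C, had 4.84 and 8.69 RPKM in WT and 10.3 and 6.27 in KO clones without 4-OHT. With 4-OHT it had 3.44 and 4.54 in WT and 4.30 and 5.01 in KO clones. Each clone was lower with 4-OHT than without, but the WT clones without 4-OHT differed from each other by more than the WT means with and without it (3.99 and 6.77). The log2 difference was -0.60 ± 0.32 (SE) in WT clones and -0.68 ± 0.32 in KO clones. Single libraries moved these values: the WT value was -0.24 without clone 54 and -0.97 without clone 15, and the KO value -0.37 without clone 66, each left out of the libraries without 4-OHT.

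**Figure D2:**
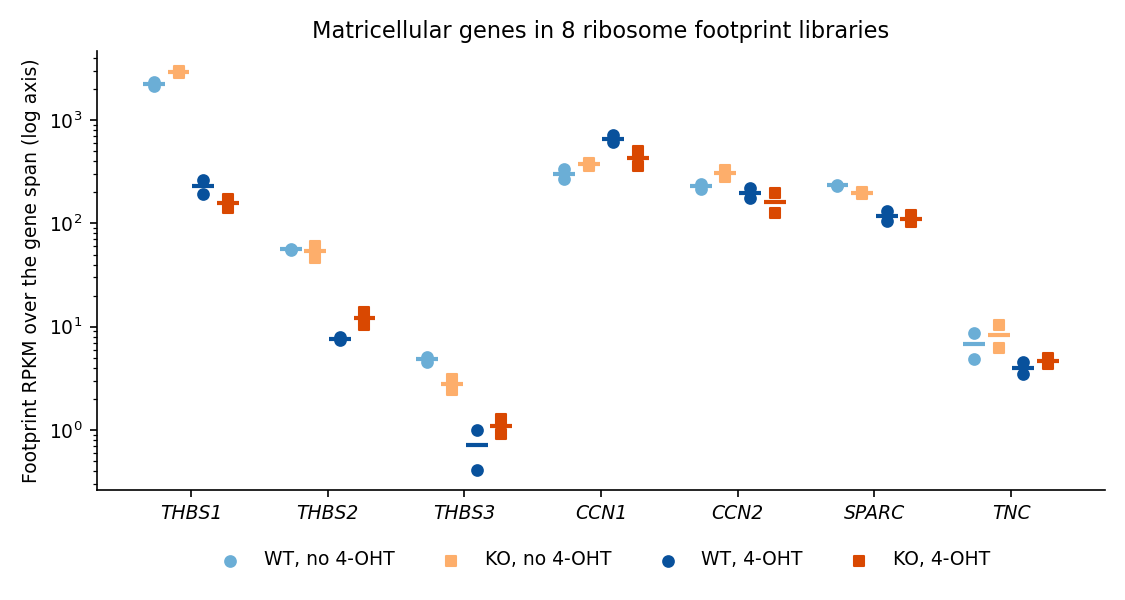
Footprint RPKM over the gene span (log y axis) of the 7 genes that passed the filter (x axis), with 1 point per library and a bar at the mean of each group of 2 clones. THBS1 is at least 2146 RPKM in every library without 4-OHT and at most 263 with it, while CCN1 is highest in WT clones with 4-OHT.

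Of the 7 genes tested with limma-trend over all genes, 1 was called higher (CCN1) and 4 lower (THBS1, THBS2, THBS3 and SPARC) with 4-OHT in WT clones, at an adjusted p under 0.05. Over all 8658 genes tested, 22.0% were called in that comparison, 13.8% higher and 8.18% lower. In KO clones 0 of the 7 were called higher and 5 lower (THBS1, THBS2, THBS3, CCN2 and SPARC), beside 17.4% and 10.7% over all genes (28.1% in either direction). The median log2 difference of the 7 genes was -0.98 in WT clones and -0.86 in KO clones, beside 0.06 and 0.05 over all genes tested. The choice of the genes used this contrast, so the counts describe the set and support nothing further. Groups with and without 4-OHT did not overlap for 6 of 7 genes in WT clones (1 higher and 5 lower), beside 69.2% of all genes tested (41.6% higher and 27.5% lower). They did not overlap for 6 of 7 in KO clones (all lower), beside 62.8% (37.0% higher and 25.8% lower).

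THBS1 and THBS2 stayed called in both genotypes in all 10 alternatives run, and THBS3 did so in WT clones. CCN1 in WT clones lost its call without WT clone 54 without 4-OHT or WT clone 15 with it, and SPARC in WT clones without clone 15 or 54 without 4-OHT or clone 54 with it. In KO clones only THBS1 and THBS2 stayed called when KO clone 66 or 69 without 4-OHT was left out, and SPARC joined them without KO clone 69 with 4-OHT. Without the shallow library of KO clone 66 with 4-OHT, the 5 genes called in KO clones were the same. THBS3 in KO clones was also not called with a pseudocount of 0.1 or by limma-voom, nor were THBS3 and CCN2 with only the 4 KO libraries. TNC was called lower in both genotypes by limma-voom on recovered reads, which called 34.3% of all genes in WT and 32.5% in KO clones, and in none of the other alternatives. Gene span moved with the 4-OHT difference over all genes (Spearman rho -0.284 in WT and -0.220 in KO clones across 8658 genes, which are not independent), and CCN1 and CCN2 have the shortest spans of the set, 3190 and 3197 bp; its part in these differences was not tested.

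**Figure D3:**
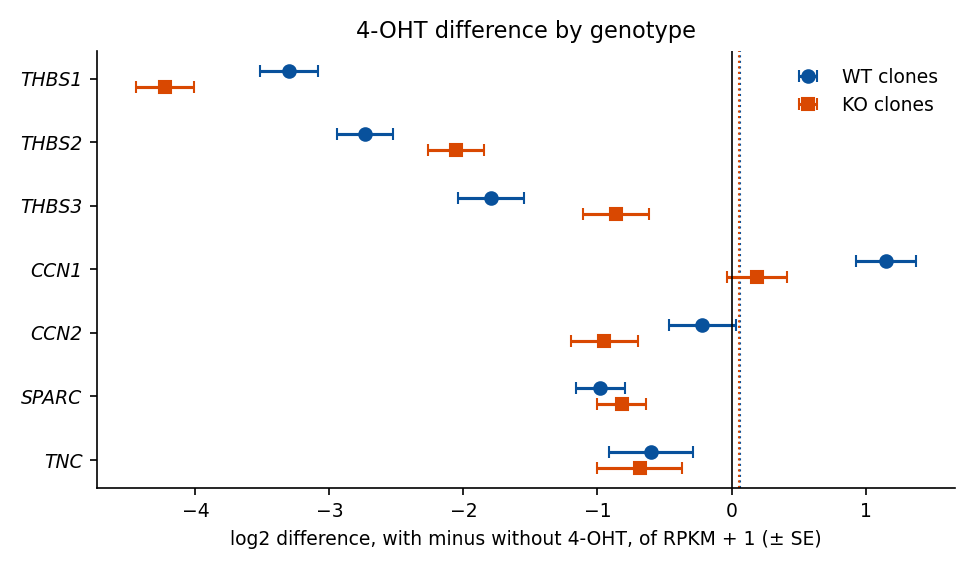
Log2 difference with minus without 4-OHT of RPKM + 1 (x axis, bars are ± SE) for the 7 tested genes (y axis), in WT clones (circles) and KO clones (squares), 2 clones each. Dotted lines mark the medians over all tested genes (0.06 and 0.05). CCN1 in WT clones lies at 1.15 and THBS1 at -3.30 and -4.23.

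The knockout was then compared with WT within each table. Without 4-OHT, THBS1 was 1.31-fold, CCN2 1.34-fold and CCN1 1.25-fold higher in KO than in WT clones, and THBS3 was 1.73-fold and SPARC 1.19-fold lower, with no overlap of the clones for these 5 of 7 genes (39.5% of 8006 tested genes had no overlap). By limma-trend none of the 7 passed (0% of all genes did). The adjusted p was 0.581 for THBS1 (log2 difference 0.39 ± 0.14 SE), 0.583 for CCN2 (0.42 ± 0.16), 0.579 for THBS3 (-0.62 ± 0.19), 0.666 for CCN1 (0.33 ± 0.17) and 0.687 for SPARC (-0.25 ± 0.15). An unadjusted p under 0.05 was reached by 3 of 7 (THBS1, THBS3 and CCN2) and by 678 genes in all, 8.47%. Limma-voom on recovered reads called 60 genes (0.749%), among them THBS1, higher in KO clones at 0.39 ± 0.08 (adjusted p = 0.0160), and that call was lost without WT clone 15 (adjusted p = 0.202), WT clone 54 (0.116) or KO clone 66 (0.0767).

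With 4-OHT, THBS1 and CCN1 stood the other way round. THBS1 was 1.46-fold and CCN1 1.54-fold lower in KO than in WT clones, and THBS2 was 1.59-fold higher, with no overlap of the clones for these 3 of 7 genes (37.6% of 7614 tested genes had none). By limma-trend none of the 7 passed (0% of all genes), at an adjusted p of 0.823 for THBS1 (log2 difference -0.54 ± 0.26 SE), CCN1 (-0.63 ± 0.27) and THBS2 (0.59 ± 0.24). An unadjusted p under 0.05 was reached by 0 of the 7 genes and by 356 genes in all, 4.68%. Of all genes, 18.4% did not overlap and were lower in KO clones, and 19.2% higher. Limma-voom called 39 genes (0.512%), among them CCN1 (-0.75 ± 0.16, adjusted p = 0.00321) and THBS1 (-0.54 ± 0.14, adjusted p = 0.0402), both lower in KO clones. Without the shallow library of KO clone 66 their adjusted p by limma-voom was 0.408 and 0.941, and without KO clone 69 it was 0.534 and 0.225. Without WT clone 15, CCN1 stayed called by limma-voom (log2 difference -0.64) and THBS1 did not (-0.25). Without WT clone 54, limma-voom called CCN1 (-0.87), THBS1 (-0.68), CCN2 (-0.66) and SPARC (-0.31) lower in KO clones. Either fit held 1 WT clone and thus no spread between WT clones.

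The difference of the 4-OHT change between genotypes asks whether KO clones responded differently. It is formed from the 4-OHT changes of both genotypes, which were known when the genes were named. P-values for this difference therefore cannot be taken as independent of that choice. As KO minus WT (log2 ± SE), the difference was -0.93 ± 0.31 for THBS1 and -0.73 ± 0.35 for CCN2, which were lower with 4-OHT by more in KO clones. It was -0.96 ± 0.32 for CCN1, which was higher with 4-OHT by less in KO clones. It was 0.93 ± 0.35 for THBS3 and 0.68 ± 0.30 for THBS2, which were lower by less in KO clones, while SPARC (0.16 ± 0.26) and TNC (-0.08 ± 0.45) differed by less than their SE. By limma-trend none passed (0% of 8658 genes), with an adjusted p of 0.858 for THBS1, CCN1, CCN2, THBS2 and THBS3, 0.925 for SPARC and 0.978 for TNC. An unadjusted p under 0.05 was reached by THBS1 (0.0177), CCN1 (0.0175) and THBS3 (0.0298), 3 of 7, and by 449 genes in all, 5.19%. The THBS3 value rests on few reads, with 3.3 recovered in WT clone 54 and 3.3 in KO clone 66 with 4-OHT. For it limma-voom gave 1.18 ± 0.78 (unadjusted p = 0.139).

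Limma-voom called 4 genes for this difference (0.0462%), and THBS1 was among them at -0.94 ± 0.16 (adjusted p = 0.0140). The other 3, named after their values were seen, were the type I collagen chain COL1A1 (1.05 ± 0.18), the actin-binding protein TAGLN (-1.32 ± 0.24) and the transcriptional regulator CITED2 (-1.37 ± 0.23). CCN1 missed the threshold at -1.06 ± 0.21 (adjusted p = 0.0546). The direction for THBS1 and CCN1 was the same in all alternatives run, between -1.14 and -0.65 for THBS1 and between -1.25 and -0.73 for CCN1. The limma-voom call of THBS1 was lost when 1 of 4 libraries was left out: WT clone 54 without 4-OHT (adjusted p = 0.0812), WT clone 15 with it (0.0948), KO clone 66 with it (0.414) or KO clone 69 with it (0.410). Without WT clone 54 with 4-OHT, THBS1 (-1.09), CCN1 (-1.15) and CCN2 (-1.05) passed by limma-voom, in a fit with 1 WT clone left in that group.

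**Figure D4:**
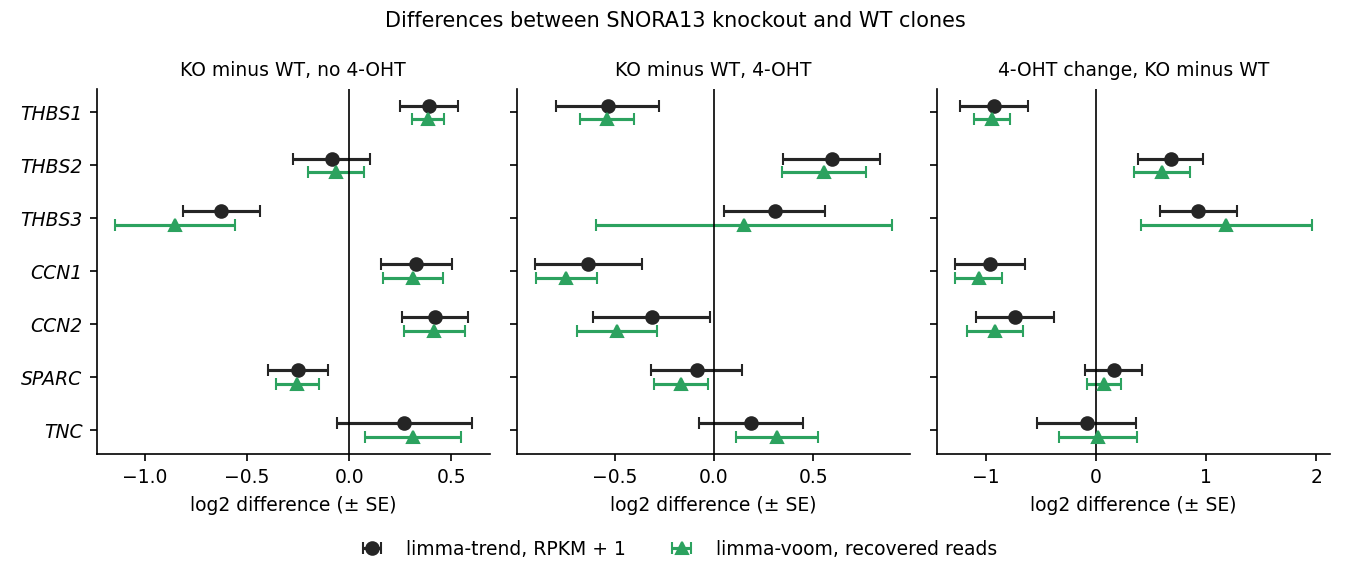
Log2 differences (x axes, bars are ± SE) of the 7 tested genes (y axis) between KO and WT clones without 4-OHT (left), with 4-OHT (middle), and of the 4-OHT change (right), by limma-trend on RPKM + 1 (circles) and limma-voom on recovered reads (triangles), with 2 clones per group. THBS1, CCN1 and CCN2 lie right of 0 in the left panel and left of 0 in the others.

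Genes of the surrounding pathway were taken from lists of other genes that hold none of the 10. The lists were chosen with earlier results of these data known. Their differences with 4-OHT are therefore also given as a description, without p-values. Of 21 YAP/TAZ-TEAD targets, 19 were tested, and with 4-OHT 10 fell and 3 rose in WT clones and likewise 10 fell and 3 rose in KO clones (8.18% and 13.8% of all genes in WT, 10.7% and 17.4% in KO clones). Their median log2 difference was -0.70 in WT and -0.50 in KO clones. Of the 19, 18 passed the filter on low reads in the libraries without 4-OHT alone and 17 in those with it. For a gene that passed on 1 side only, the filter favours a direction, so these counts and medians describe the list only. The 3 with the largest differences were IGFBP3, which binds insulin-like growth factors, NT5E, the enzyme that makes adenosine from AMP, and the matrix protein CCDC80. IGFBP3 fell from 189 ± 12.8 to 3.05 ± 1.53 RPKM in WT clones (mean ± SD, n = 2) and from 194 ± 1.24 to 0.620 ± 0.877 in KO clones. NT5E rose from 1.99 ± 0.452 to 38.6 ± 4.75 RPKM in WT clones and from 0.996 ± 0.255 to 38.8 ± 2.57 in KO clones. CCDC80 fell from 15.3 ± 0.724 to 0.942 ± 0.252 RPKM in WT clones and from 13.2 ± 2.71 to 0.357 ± 0.338 in KO clones. Genes of this list thus moved in both directions.

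Of 16 Hippo pathway components, the kinases, adaptors and TEAD factors upstream of these targets, 12 were tested. In WT clones 0 rose and 0 fell, and in KO clones 2 rose and 0 fell, with medians of 0.07 and 0.13. Over all genes 13.8% rose and 8.18% fell in WT clones and 17.4% and 10.7% in KO clones, so 2 of 12 is near that share. The 2 that rose were SAV1, a scaffold of the Hippo kinases (0.510 ± 0.0888 to 2.92 ± 1.85 RPKM), and WWTR1, which encodes TAZ (0.341 ± 0.0823 to 0.954 ± 0.0749). STK4, a Hippo kinase, went from 0.423 ± 0.0148 to 0.895 ± 0.0246 in WT and from 0.449 ± 0.0966 to 0.813 ± 0.170 in KO clones and did not pass. Without 4-OHT the means of SAV1, WWTR1 and STK4 were below the pseudocount of 1, which shrinks their log2 differences. These were 0.41 for STK4 in WT and 0.54 for WWTR1 in KO clones. Of the 12 genes, 10 passed the filter on low reads with 4-OHT alone. Medians near 0 and few calls therefore do not show that these genes were unchanged.

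Of 15 receptors of matricellular proteins, 11 were tested, and 1 rose and 3 fell in WT clones while 2 rose and 3 fell in KO clones. The numbers that rose are near the shares over all genes (13.8% in WT and 17.4% in KO clones), and 8.18% and 10.7% of all genes fell. LRP1, the endocytic receptor that clears thrombospondins, fell from 54.0 ± 1.48 to 6.04 ± 0.706 RPKM in WT clones and from 48.03 ± 4.49 to 7.18 ± 1.29 in KO clones. The integrin chain ITGA6, part of a receptor for CCN1, rose from 5.60 ± 2.41 to 20.1 ± 5.13 in WT and from 4.73 ± 0.465 to 23.7 ± 0.0958 in KO clones. ITGA5, a chain of the fibronectin receptor, rose in KO clones from 15.5 ± 4.21 to 50.5 ± 14.1 and went from 19.3 ± 1.05 to 33.96 ± 1.29 in WT clones, where it did not pass.

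Of 11 genes of TGF-beta activation and signalling, 8 were tested, and 2 rose and 1 fell in each genotype, where 13.8% and 8.18% of all genes did so in WT clones and 17.4% and 10.7% in KO clones. LTBP1, which anchors latent TGF-beta in the matrix, rose from 0.1002 ± 0.0282 to 0.560 ± 0.00125 in WT and from 0.112 ± 0.0251 to 0.894 ± 0.200 in KO clones. TGFBR1, a receptor kinase, did not pass in either genotype.

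Of 10 other matricellular genes, 6 were tested, and 3 fell and 0 rose in each genotype, where 8.18% of all genes fell and 13.8% rose in WT clones and 10.7% and 17.4% in KO clones. TGFBI is among the 3 in each genotype. Of the 6 genes, 5 passed the filter on low reads in the libraries without 4-OHT alone and 4 in those with it. The filter can favour a direction for such genes, so these counts describe the list only. FSTL1, a secreted SPARC relative, fell from 50.02 ± 5.14 to 15.3 ± 1.51 RPKM in WT and from 47.00 ± 0.280 to 16.4 ± 1.74 in KO clones. TGFBI, an integrin-binding matrix protein, passed the filter on low reads only through the libraries without 4-OHT, where it is high. Its calls are included in the counts above but add nothing to them. Its mean went from 1.033 ± 0.233 to 0.0669 ± 0.0257 in WT and from 1.77 ± 0.159 to 0.190 ± 0.269 in KO clones. FBLN1 (fibulin-1) fell in KO clones from 20.9 ± 0.567 to 11.6 ± 0.0100, and went from 16.2 ± 3.85 to 11.5 ± 0.398 in WT clones, where it did not pass. Of the 4 other thrombospondin and CCN genes only CCN3, a family member often opposed to CCN2, was tested. It went from 12.1 ± 0.734 to 9.29 ± 2.61 RPKM in WT clones and from 20.5 ± 5.05 to 15.5 ± 1.23 in KO clones and did not pass. Between genotypes, with or without 4-OHT, and for the difference of the 4-OHT change, limma-trend called 0 genes of these 6 lists, as it did over all genes.

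**Figure D5:**
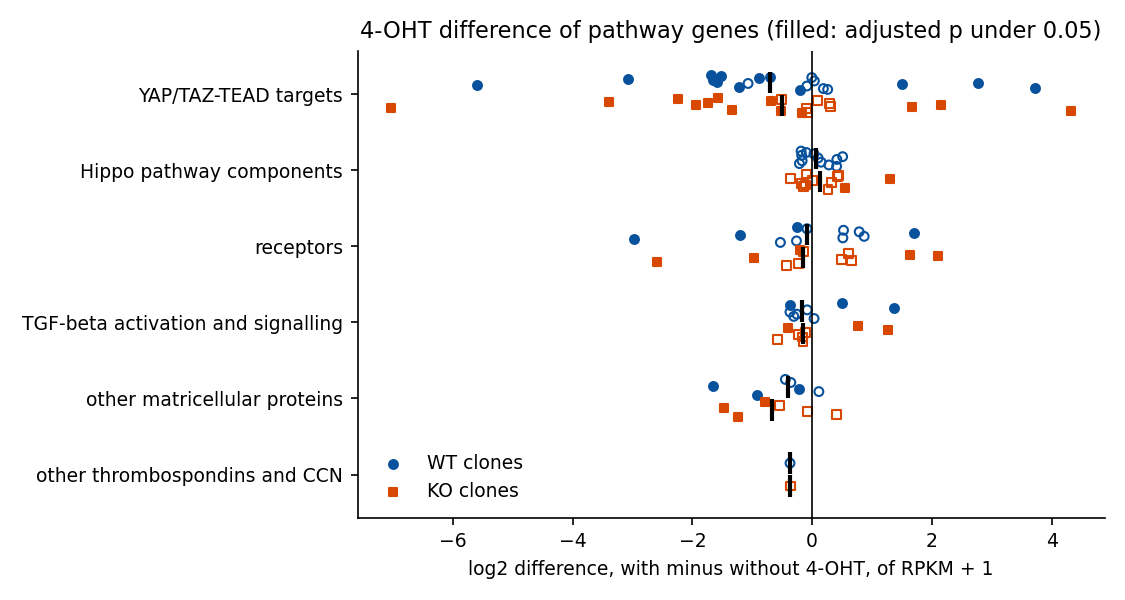
Log2 difference with minus without 4-OHT of RPKM + 1 (x axis) for each tested gene of 6 pathway lists (y axis), in WT clones (circles) and KO clones (squares), filled where the adjusted p was under 0.05; black bars mark list medians. YAP/TAZ-TEAD targets spread from about -7.03 to 4.32, and the tested Hippo components had medians of 0.07 and 0.13, with SAV1 in KO clones at 1.29.

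The genes most like a member were taken as those with the smallest Euclidean distance of log2(RPKM + 1) over the 8 libraries, each gene centred on its mean, among 8658 genes. For THBS1 they were SEMA3B (distance 0.740), HTR2B (0.845), OXTR (0.985), CCDC80 (1.02) and CPA4 (1.02). With 4-OHT, HTR2B was at 0 in WT clone 54 and both KO clones, CPA4 in both KO clones and SEMA3B in KO clone 66. The pseudocount of 1 thus bears on the distances of these genes. OXTR, the oxytocin receptor, went from a mean of 79.9 to 10.2 RPKM with 4-OHT in WT and from 87.4 to 6.93 in KO clones. For CCN1 they were SDE2 (0.443), PTTG1IP (0.482), VPS25 (0.489), TFPT (0.496) and CRAT (0.511). VPS25, a subunit of an endosomal sorting complex, went from 23.1 to 41.1 in WT and from 25.5 to 32.1 in KO clones. For CCN2 they were ADGRB2 (0.446), TMEM173 (0.506), KIF7 (0.528), SHISA5 (0.530) and PERP (0.571). The pseudocount bears on these 2 lists as well. No library exceeded 1.64 RPKM for ADGRB2, 1.45 for KIF7, 4.99 for SDE2, 4.75 for PTTG1IP or 3.76 for TFPT. In WT clones the mean of ADGRB2 went from 1.09 to 0.497 RPKM with 4-OHT, where that of CCN2 went from 229 to 198. The nearest genes of THBS1, CCN1 and CCN2 included no other gene of the set.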

How the data were processed

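Ribosome footprints were measured in 8 libraries, 2 clones in each of 4 groups, grouped by the sample titles. The deposited values name no unit and were read as RPKM, because the sum of value times gene span hardly differed between libraries. STAR and GRCh38 are named per the submitters' processing notes; the counter and annotation, and all versions, are not stated there. Spans came from RefSeq GRCh38.p14, and 99 genes of each table without one were left out. Low values times span came in whole multiples of 1 read (between 80.3% and 85.3% within 0.1 of a whole number), which gave approximate reads and depths.

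Genes that reached 10 recovered reads in 2 or more libraries were tested with limma-trend (limma 3.58.1, R 4.3.3) on log2(RPKM + 1), which understates changes of low genes. Genotypes were compared within each table (4 libraries, 2 residual degrees of freedom) and 4-OHT and its difference between genotypes on all 8. P-values were adjusted by Benjamini-Hochberg over all genes, threshold 0.05. P-values measure the spread between clones of the same group, with the variance of each gene drawn toward that of all genes. Where 1 library was left out, its group had 1 clone and no spread of its own. Those p-values do not measure the spread between clones of that group. With 2 libraries against 2, no exact test of a single value can reach that threshold. The code was tested on simulated data. The 10 genes and the lists were chosen with earlier results of these data known; all 10 are described, and from each list the 3 genes with the largest mean 4-OHT difference, except 1 item that is not reported here. Clone labels pair libraries without and with 4-OHT. Deviations from group means correlated across 3362 genes with r of 0.201 in WT and 0.004 in KO clones. Alternatives are given in the closing section. Columns not used: 0.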

Additional observations from a re-analysis of the deposited data

How the results depend on the processing

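Over all genes, the counts called were 1904 (4-OHT in WT clones), 2435 (4-OHT in KO clones) and 0 for each of the comparisons between genotypes (without 4-OHT, with 4-OHT, and the difference of the 4-OHT change). With limma-voom on recovered reads they were 2972, 2812, 60, 39 and 4. With the clone as a replicate block, the 4-OHT counts were 1575 and 2032 and that of the difference 0, and the block changed no call of the 10 genes. With only the 4 KO libraries the KO count was 1292, and with all 8 libraries the genotype count without 4-OHT was 3 (MX1, EEF1A2 and DPT). The 4-OHT calls split into 1196 higher and 708 lower in WT clones, but 821 and 983 after median-ratio scaling, and in KO clones into 1505 and 930, but 998 and 1345. Leaving out 1 library gave between 812 and 1083 genes in WT clones and between 1113 and 3460 in KO clones (1520 without KO clone 69 without 4-OHT). Between genotypes it gave between 0 and 5 genes without 4-OHT, between 0 and 817 with it, and between 0 and 2 for the difference, with 817 and 2 (MCM10 and OVCA2) both without KO clone 69 with 4-OHT, and 5 (C9orf16, CCDC105, CYP2A13, ISYNA1 and PIGY) without KO clone 69 without it. Limma-voom without 1 library, chosen after the data were seen, gave 10, 35, 80 and 143 genes without 4-OHT, 3 (IGFBP2, PTGS2 and TAGLN), 107, 186 and 305 with it, and between 0 and 21 for the difference (7 and 8 without KO clone 66 or 69 without 4-OHT). The median 4-OHT difference of all genes, 0.06 in WT and 0.05 in KO clones, was 0.22 in both with limma-voom.

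Of 465 values of the tested genes recomputed under these settings, 22 of comparisons between genotypes changed sign, each with no call on either side, as did 2 of CCN1 with 4-OHT in KO clones. All but 1 of the 22 came from leaving out 1 library. Over those omissions with limma-trend, THBS2 without 4-OHT lay between -0.28 and 0.11, CCN2 with 4-OHT between -0.63 and 0.00, SPARC with 4-OHT between -0.24 and 0.07 (0.02 without KO clone 69), TNC without 4-OHT between -0.09 and 0.63 (-0.05 without KO clone 66), and TNC in the difference between -0.45 and 0.28 (also 0.24, 0.08 and 0.01). With limma-voom, the values that changed sign were 0.11 for THBS2 without 4-OHT, -0.08 for THBS3 and 0.01 in both cases for SPARC with 4-OHT, -0.04 for SPARC in the difference, -0.15 and -0.01 for TNC without 4-OHT, and 0.50, 0.32, 0.17 and 0.07 for TNC in the difference. With all libraries limma-voom gave 0.02 for TNC in the difference. The cause of these shifts was not tested. Where 1 library was left out, the remaining clone of its group was assumed to vary like the other groups. Depth limits CCN4, POSTN and THBS3 most.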
